A study of Mus musculus with 6 samples.

Results

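The CDK inhibitors and D-type cyclins are 10 genes that set whether a cell enters the division cycle, and all 10 are among the 24016 rows of the deposited table that were kept, 92 of which are spike-in controls. They were chosen by symbol: the Cip/Kip inhibitors Cdkn1a, Cdkn1b and Cdkn1c, the INK4 inhibitors Cdkn2a, Cdkn2b, Cdkn2c and Cdkn2d, and the D-type cyclins Ccnd1, Ccnd2 and Ccnd3. The study set apart basal cells of the mouse esophageal epithelium, the stratified lining of the gullet, by whether a Krt15 promoter had been active in them. All 6 libraries came from Krt15-CrePR1;R26mTomato/mGFP mice, which carry a Cre recombinase under the Krt15 promoter that works only with RU486 (mifepristone) and a membrane reporter that turns from Tomato to GFP after recombination. For all 6 libraries, mice received 1 mg of RU486 and were sampled 24 h later, so no group without RU486 is at hand. Neither age nor sex is given in the sources used here. Cells with high CD29 (integrin beta-1, a surface marker of basal cells) were sorted into a GFP-positive group, called Krt15+ here, and a GFP-negative group, called Krt15-, with 3 libraries each. A GFP-negative cell may still use the Krt15 promoter where recombination did not occur, so the names refer to GFP.

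In the G1 phase, a D-type cyclin binds and activates the kinases CDK4 and CDK6, which phosphorylate the retinoblastoma protein and so release E2F transcription factors that switch on genes for DNA replication. The INK4 proteins block CDK4 and CDK6, while the Cip/Kip proteins act on cyclin-bound kinases more broadly, CDK2 included. In stratified epithelia such as the esophagus, division is normally a matter of the basal layer, and cells leave the cycle as they move up and differentiate.

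Values are FPKM, fragments per kilobase of transcript scaled to the mapped fragments of the library, as the authors estimated them. They can be compared between genes because they are divided by length. Depth was estimated at 28.8 to 42.1 M fragments in the Krt15- libraries and 27.5 to 34.4 M in the Krt15+ ones, so that a single fragment on a transcript of 1 kb was worth 0.024 to 0.036 FPKM. The Krt15- replicate 1 library stood apart. It had 3247 genes at 1 FPKM or more, against 6906 to 9194 in the other 5 libraries. Of 2501 genes at 10 FPKM or more in each of those 5 libraries, 30.03% were below 1 FPKM in it, where the same measure was at most 2.03% for any other library. An exact 0 can be a failed estimate: Tbp, which every cell uses, was listed at 0 in 2 libraries. Members with such values are given per library. Basal keratins marked all libraries, with Krt5 at 369 to 1293 FPKM and Krt14 at 949 to 3199 FPKM, and Krt15 itself stood at 2350 to 6784 FPKM in Krt15- and at 2420 to 9692 FPKM in Krt15+ libraries. Trp63 and Itgb1 were low in the Krt15- replicate 1 library only, at 0.459 and 1.03 FPKM against at least 30.8 and 10.8 FPKM elsewhere. Suprabasal keratins were abundant as well, with Krt4 at 606 to 6295 FPKM.

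Among the 10 genes, the inhibitor gene Cdkn1a reached the highest level, the 3 D-type cyclin genes were above 0 in every library, the INK4 genes Cdkn2d and Cdkn2c varied from 0 to 43.7 and 20.8 FPKM, Cdkn2b and Cdkn1b stayed at or below 10.2 FPKM, and Cdkn1c and Cdkn2a were listed at 0 in every library. None of them differed between Krt15+ and Krt15- cells past the test. The 8 that reached a mean of 1 FPKM over the 6 libraries were tested among 9423 genes in limma (a linear model that shares spread between genes) on log2(FPKM + 1). A gene was called at an adjusted p below 0.05 (Benjamini-Hochberg, over all 9423). The model called 0% of all genes higher and 0% lower, and 3.93% had an unadjusted p below 0.05, either way, among which there was no member. A difference above 0 was estimated for 6 of the 8, where 68.6% of all genes tested had one. The members' groups overlapped in all 8 cases, where 11.3% of all genes tested had groups that did not.

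With fewer libraries, some members' groups came apart, and so did those of many other genes. Without Krt15- replicate 1 the groups of Cdkn2d and Ccnd1 did not overlap, lower in Krt15+ cells, as for 19.6% of all genes tested in either direction. Without Krt15- replicate 3 this held for Cdkn1a and Cdkn1b, higher in Krt15+ cells (24% of all genes), and without Krt15+ replicate 1 for Cdkn1a (20.3%). Without Krt15+ replicate 2 it held for Ccnd3, lower in Krt15+ cells (16.9%). Without Krt15- replicate 2 (24.6%) or Krt15+ replicate 3 (19%) it held for none. Leaving out both libraries of a replicate number, it held for 4 members without number 1 (31.4%), 1 without number 2 (31.9%) and 2 without number 3 (33.9%), of which Cdkn1b was then below the filter and so not among the genes of that share. Whether each library is a different mouse is not stated, so p-values reflect only how these libraries vary, possibly for technical reasons. With 3 libraries against 3, the exact permutation test of a single gene cannot go below p = 0.10.

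**Figure D1:**
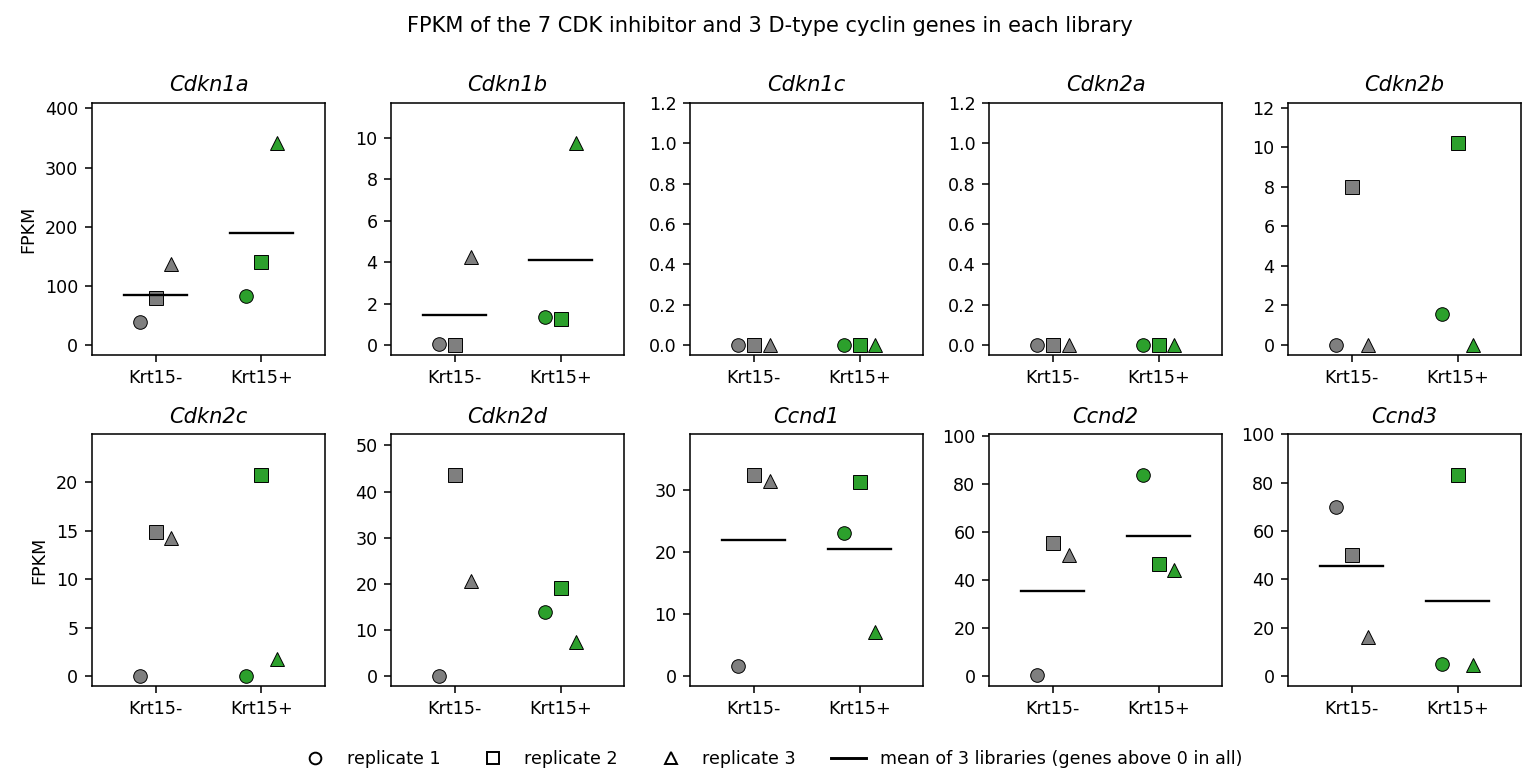
FPKM (vertical axis, a separate linear scale for each gene) of each of the 10 genes in the 3 Krt15- libraries (grey) and the 3 Krt15+ libraries (green); symbols give the replicate number and bars the mean of 3 libraries, drawn for genes above 0 in all 6. The groups overlap for every gene with values above 0, Cdkn1c and Cdkn2a lie at 0 throughout, and Ccnd2 and Cdkn2d are lowest in the Krt15- replicate 1 library.

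Of the Cip/Kip inhibitors, Cdkn1a carried nearly all of the signal. It encodes p21, which is induced by p53 and also rises as keratinocytes differentiate. In Krt15- replicates 1 to 3 its level was 39.4, 79.4 and 137 FPKM, and in Krt15+ replicates 1 to 3 83.5, 141 and 341 FPKM. The highest library was Krt15+ replicate 3 and the lowest Krt15- replicate 1, and the ranges of the groups overlapped between 83.5 and 137 FPKM. The means were 85.2 ± 49.0 and 189 ± 135 FPKM (SD, n = 3). As log2(FPKM + 1), Krt15+ minus Krt15- was 1.06 (95% CI -0.71 to 2.83, SE 0.81, limma adjusted p = 0.79), and the exact 2-sided permutation p was 0.20. The difference had the same sign in all 18 alternative settings, between 0.29 with library weights and 1.52 without Krt15+ replicate 1, and was 0.52 without Krt15+ replicate 3. The middle of all genes moved the same way, with a median difference of 0.63. Without Krt15- replicate 1 that median was 0.02, and the difference of Cdkn1a was 0.60 (limma adjusted p = 0.90). By level among the 24016 rows, the rank of Cdkn1a lay between 392 and 1524 over the 6 libraries.

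Cdkn1b encodes p27, the inhibitor that holds resting cells in G1 and is controlled largely through protein degradation. Its level was 0.0291, 0.01 and 4.25 FPKM in Krt15- libraries and 1.34, 1.24 and 9.74 FPKM in Krt15+ ones. Replicate 3 was the highest of each group, and the other Krt15- values were below the worth of a single fragment on a 1 kb transcript. The means were 1.43 ± 2.44 and 4.10 ± 4.88 FPKM (SD, n = 3), a difference in log2(FPKM + 1) of 1.12 (95% CI -1.31 to 3.55, SE 1.11, limma adjusted p = 0.80) that turned to -0.67 with quantile normalization and to -0.12 with library weights. Cdkn1c, which encodes p57, was listed at 0 in all 6 libraries. Within the summed Cip/Kip FPKM of a library, Cdkn1a made up 96.99% to 99.99% and Cdkn1b 0.0126% to 3.01%.

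The INK4 inhibitors were less abundant than Cdkn1a. Those with values above 0 spread more around the group means in log2(FPKM + 1), with an SD of 1.79 to 2.26 against 0.96 for Cdkn1a. Spread went with level: genes within 1 log2 unit of their mean levels had a median SD of 1.27 to 1.73, against 0.73 around Cdkn1a. The D-type cyclins had an SD of 1.65 to 2.21. Cdkn2a, whose locus yields both p16INK4a and the p53 activator p19ARF from different first exons, was listed at 0 in all 6 libraries, so a gene-level value would not have told the 2 products apart in any case. Its neighbour Cdkn2b, which encodes p15INK4b, a target of TGF-beta signalling, stood at 0, 7.98 and 0 FPKM in Krt15- libraries and at 1.57, 10.2 and 0 FPKM in Krt15+ ones. Replicate 2 was the highest of either group and replicate 3 at 0 in both. The difference in log2(FPKM + 1) was 0.56 (SE 1.25, limma adjusted p = 0.91), and it turned to -0.38 without Krt15+ replicate 2.

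Cdkn2c, the gene of p18INK4c, stood at 0.034, 14.9 and 14.3 FPKM in Krt15- and at 0, 20.8 and 1.76 FPKM in Krt15+ libraries. Each group thus had both high values and values near 0. Its difference of -0.69 (SE 1.51, 95% CI -3.99 to 2.61, limma adjusted p = 0.91) turned to 0.30 without Krt15+ replicate 1 and reached -1.99 without Krt15- replicate 1. Among genes within 1 log2 unit of its mean level, 91.5% had a smaller spread around the group means, a larger share than for Cdkn1a (66.5%).

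Cdkn2d encodes p19INK4d, and reached the highest level of the INK4 genes. It stood at 0, 43.7 and 20.7 FPKM in Krt15- and at 13.9, 19.2 and 7.37 FPKM in Krt15+ libraries. Apart from the 0 in Krt15- replicate 1, each Krt15- value lay above each Krt15+ value. The difference was accordingly 0.46 with all libraries (SE 1.44, limma adjusted p = 0.94) and -1.19 without Krt15- replicate 1 (limma adjusted p = 0.89). Summed over the 4 INK4 genes, levels were 0.034, 66.6 and 35.0 FPKM in Krt15- and 15.5, 50.2 and 9.13 FPKM in Krt15+ libraries. Where the sum exceeded 1 FPKM, Cdkn2d was its largest part in 4 libraries and Cdkn2c in Krt15+ replicate 2, with 41.4% against 38.26%.

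The 3 D-type cyclins were all expressed, and Ccnd1 had the lowest mean in both groups, while Ccnd3 had the highest in Krt15- and Ccnd2 in Krt15+ libraries, orders within the spread given below. Cyclins D1, D2 and D3 are close relatives that activate the same kinases and are used to different extents in different tissues. Ccnd1, a common target of growth factor and Wnt signalling, stood at 1.70, 32.5 and 31.4 FPKM in Krt15- libraries and at 23.1, 31.3 and 7.18 FPKM in Krt15+ ones. Of the 6 values, 4 lay between 23.1 and 32.5 FPKM, and the lowest was that of Krt15- replicate 1. The means were 21.9 ± 17.5 and 20.5 ± 12.3 FPKM (SD, n = 3). The difference, 0.37 in log2(FPKM + 1) (95% CI -2.41 to 3.15, SE 1.27, limma adjusted p = 0.95), had no stable sign: it was -0.83 without Krt15- replicate 1 and -0.03 without Krt15+ replicate 2, and -0.49 with quantile normalization. The annotated gene Oraov1 (now Lto1) overlaps an exon of Ccnd1 on the other strand and stood at 5.39 FPKM or less in every library.

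Ccnd2 stood at 0.334, 55.6 and 50.5 FPKM in Krt15- and at 84.0, 46.8 and 44.4 FPKM in Krt15+ libraries. The other 5 libraries stayed within 44.4 to 84.0 FPKM, and only Krt15- replicate 1 was low, where 30.03% of genes at 10 FPKM or more elsewhere were below 1 FPKM. The means were 35.5 ± 30.5 and 58.4 ± 22.2 FPKM (SD, n = 3). The difference of 1.86 (SE 1.39, 95% CI -1.20 to 4.91, limma adjusted p = 0.79, exact 2-sided permutation p = 0.60) was the largest estimate above 0 among the 8 members tested. It came to 0.08 without Krt15- replicate 1 (limma adjusted p = 0.98).

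Ccnd3, best known for its part in the expansion of immature lymphocytes, had an estimate of the opposite sign. It stood at 70.1, 50.0 and 16.3 FPKM in Krt15- and at 5.13, 83.4 and 4.52 FPKM in Krt15+ libraries. Of the Krt15+ libraries, 2 lay below all Krt15- ones, while Krt15+ replicate 2 was the highest of all 6. The means were 45.4 ± 27.2 and 31.0 ± 45.4 FPKM (SD, n = 3). The difference was -1.49 (SE 1.26, 95% CI -4.24 to 1.27, limma adjusted p = 0.79, exact 2-sided permutation p = 0.40), and it stayed below 0 in all 18 alternative settings, between -2.77 without Krt15+ replicate 2 and -0.46 without both replicate 1 libraries. In the GRCm38 annotation an exon of Bysl overlaps Ccnd3 on the other strand. Bysl stood at 0.357, 7.40 and 8.38 FPKM in Krt15- and at 6.63, 10.6 and 20.1 FPKM in Krt15+ libraries, and since the library chemistry does not mark strand, reads of the overlap cannot be assigned between these genes.

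**Figure D2:**
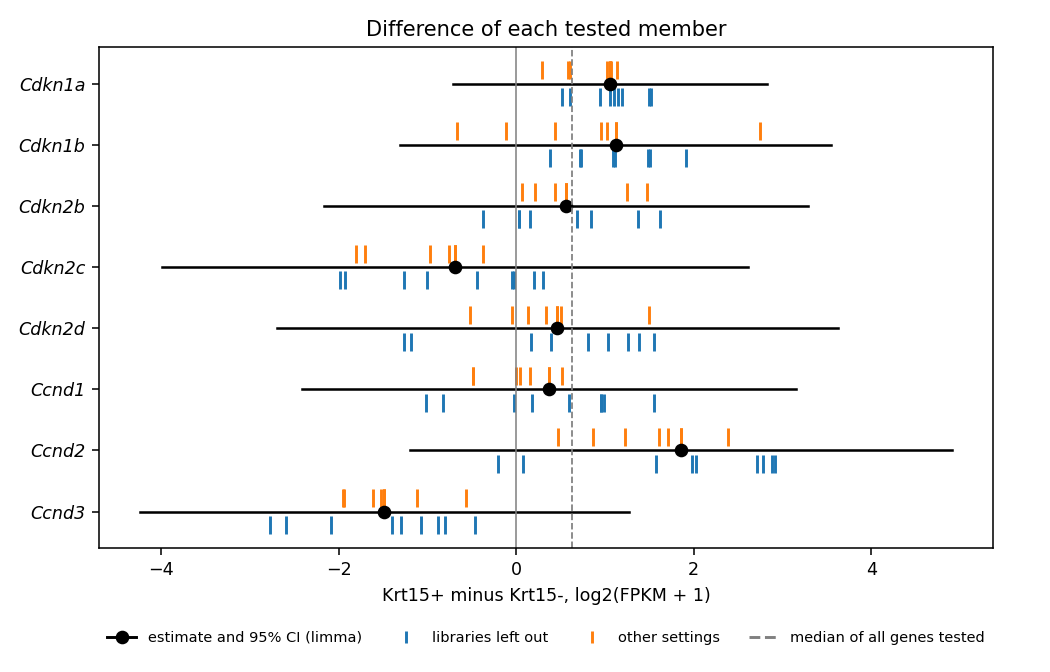
Krt15+ minus Krt15- difference in log2(FPKM + 1) (horizontal axis) for the 8 members tested: points and lines are the limma estimate and its 95% confidence interval, blue ticks the estimates with libraries left out, orange ticks those of the other settings, the dashed line the median of all 9423 genes. All 8 intervals include 0, and only Cdkn1a and Ccnd3 keep their sign in every setting.

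Which D-type cyclin prevailed differed between libraries of the same group. Of the summed D-type cyclin FPKM, Ccnd2 made up 0.464%, 40.2% and 51.4% in Krt15- and 74.9%, 29.0% and 79.1% in Krt15+ libraries. Ccnd3 made up 97.2%, 36.2% and 16.6% in Krt15- and 4.57%, 51.6% and 8.05% in Krt15+ libraries. Ccnd2 thus led in 4 libraries, 2 of each group, and Ccnd3 in Krt15- replicate 1 and Krt15+ replicate 2. The share of Ccnd1 was 2.35%, 23.5% and 32.03% in Krt15- and 20.6%, 19.4% and 12.8% in Krt15+ libraries, and it led in none. These shares do not depend on how libraries are scaled to each other. The sum itself stood at 72.1, 138 and 98.2 FPKM in Krt15- and at 112, 161 and 56.1 FPKM in Krt15+ libraries (103 ± 33.2 and 110 ± 52.7, SD, n = 3).

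**Figure D3:**
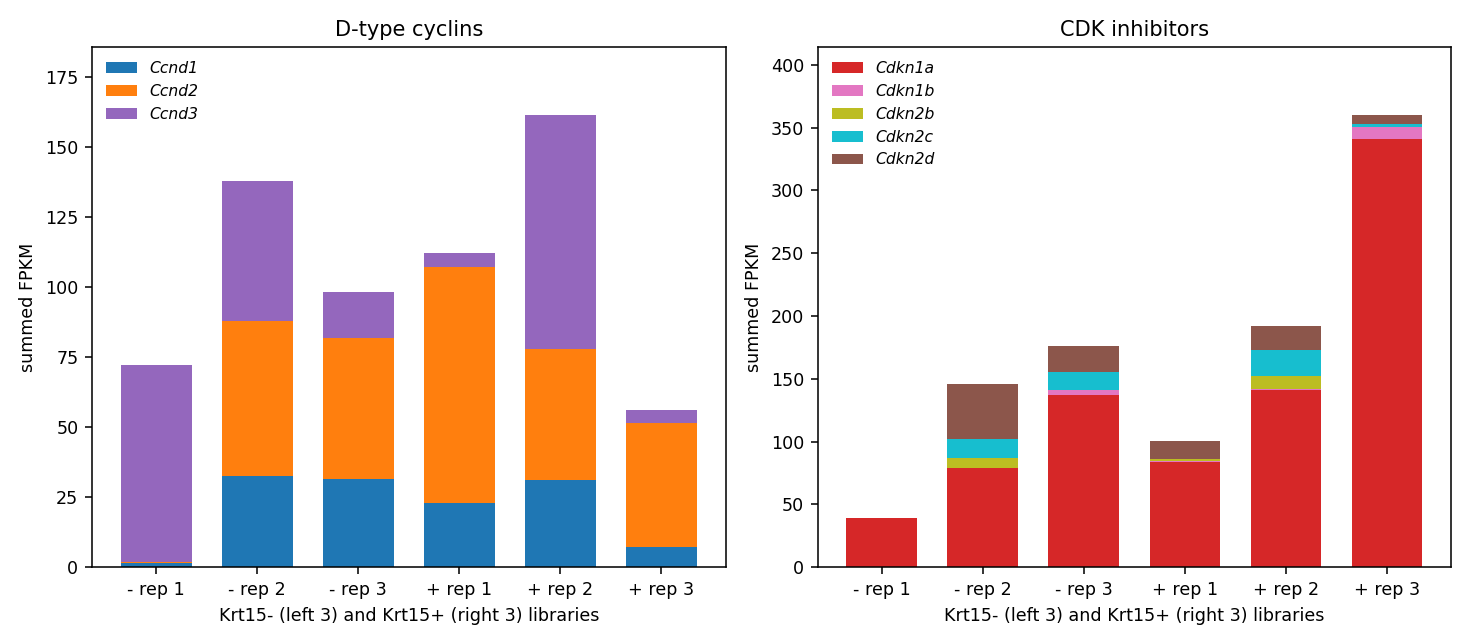
Stacked FPKM of the 3 D-type cyclin genes (left) and of the 5 CDK inhibitor genes with a value above 0 (right) in each of the 3 Krt15- and 3 Krt15+ libraries; bars start at 0. Cdkn1a is the largest inhibitor part of every bar, from 54.4% to 99.8%, whereas the leading D-type cyclin changes between Ccnd2 and Ccnd3.

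Set against each other, Cdkn1a stood at 0.547, 0.575 and 1.39 times the summed D-type cyclins in Krt15- and at 0.745, 0.871 and 6.09 times in Krt15+ libraries. Both replicate 3 libraries had more Cdkn1a than D-type cyclin FPKM and the other 4 had less, and the groups overlapped. The value of 6.09 joined the highest Cdkn1a level to the lowest D-type cyclin sum of the 6 libraries.

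The genes whose levels ran most like those of the 3 most abundant members were taken among 3087 genes at a mean of 10 FPKM or more and above 0 in every library, by Pearson's r of log2(FPKM + 1) over the 6 libraries, as a description. For Cdkn1a they were Pa2g4 (r = 0.972), Usp14 (r = 0.970) and Sprr1a (r = 0.961), a cornified envelope gene. Pa2g4 stood at 5.07, 9.14 and 25.1 FPKM in Krt15- and at 15, 26.1 and 48.5 FPKM in Krt15+ libraries. Usp14 stood at 0.678, 3.9 and 12.2 FPKM against 3.58, 19.1 and 34.9 FPKM, and Sprr1a at 5.18, 36.9 and 127 FPKM against 26.7, 113 and 268 FPKM. For Ccnd2 they were Oser1 (r = 0.998), Ccdc12 (r = 0.996) and Psmg4 (r = 0.996). Each of these 3 was lowest in Krt15- replicate 1, as was Ccnd2. For Ccnd3 they were Hspd1 (r = 0.994), Pgk1 (r = 0.986) and Tmsb10 (r = 0.984), and Pgk1, a glycolytic enzyme gene, stood at 102, 114 and 62.3 FPKM in Krt15- and at 42.3, 114 and 40.8 FPKM in Krt15+ libraries.

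Around the members, none of the 65 genes on the 5 lists of partners, targets and regulators changed past the test, and none of the 55 tested had an unadjusted p below 0.05, where 3.93% of all genes tested did. In the list of CDKs, E-type cyclins and CDK activators, 6 of 8 tested genes had a difference above 0, with a median of 0.56 against 0.63 for all genes. Cdk4, the main kinase partner of the D-type cyclins, was abundant in every library, at 78.5, 194 and 110 FPKM in Krt15- and 109, 294 and 137 FPKM in Krt15+ libraries (difference 0.46, SE 0.71, limma adjusted p = 0.87). Cdk6, the alternative partner, reached 1 FPKM only in Krt15+ replicate 1, at 2.99 FPKM. Cdc37, a chaperone cofactor of CDK4, stood at 0.185, 52.2 and 54.7 FPKM in Krt15- and at 21.5, 78.9 and 39.4 FPKM in Krt15+ libraries.

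The groups did not overlap for Ccnh and Cdk7, which encode the cyclin and the kinase of the CDK-activating kinase, 2 of 8 in the lower direction where 2.44% of all genes tested were. Cdk7 is named because of its values. Ccnh stood at 75.0, 40.5 and 33.4 FPKM in Krt15- and at 9.77, 9.58 and 26.2 FPKM in Krt15+ libraries (difference -1.71, SE 0.98, limma adjusted p = 0.79). Cdk7 stood at 12.5, 9.88 and 10.2 FPKM in Krt15- and at 5.50, 7.82 and 7.40 FPKM in Krt15+ libraries (difference -0.59, SE 1.05, limma adjusted p = 0.89). Mnat1, the remaining subunit of that kinase, was listed at 0 in Krt15- replicate 1 and stood at 39.2 and 24.1 FPKM in the other Krt15- libraries, against 6.55, 21.3 and 5.06 FPKM. Its difference was 0.0051 (SE 1.47).

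Of the pocket proteins and E2F factors, which lie just downstream, 4 of 10 tested genes had a difference above 0 (median -0.10). Tfdp1, the dimer partner of E2F proteins, stood at 19.9, 30.5 and 13.2 FPKM in Krt15- and at 21.6, 46.9 and 4.90 FPKM in Krt15+ libraries. E2f4, a repressive E2F of resting cells, stood at 0.320, 23.3 and 5.71 FPKM against 2.23, 35.3 and 5.12 FPKM, and E2f5, its close relative, at 0, 16.2 and 15.4 FPKM against 14, 7.24 and 0.0196 FPKM. E2f2 and E2f7 were listed at 0 throughout.

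Of 14 tested regulators of the members, 8 had a difference above 0 (median 0.40). Cks1b, a cofactor in the degradation of p27, stood at 558, 291 and 156 FPKM in Krt15- and at 120, 192 and 118 FPKM in Krt15+ libraries (difference -1.06, SE 0.65, limma adjusted p = 0.79), while Skp2, which works with it, was listed at 0 throughout. Id1, an inhibitor of differentiation factors, stood at 434, 85.1 and 156 FPKM against 196, 160 and 171 FPKM. Myc, which drives G1 progression, stood at 0.292, 361 and 42.4 FPKM against 85.5, 217 and 94.1 FPKM (difference 2.16, SE 1.62, limma adjusted p = 0.79). The groups did not overlap for 3 regulators, named for that reason, all higher in Krt15+ cells where 8.85% of all genes tested were: Ezh2, a Polycomb methyltransferase, Foxo1, a transcription factor that can raise Cdkn1b, and Gsk3b, a kinase that marks cyclin D1 for degradation. Ezh2 stood at 0.277, 5.26 and 1.58 FPKM against 9.65, 9.86 and 6.87 FPKM, Foxo1 at 0.0183, 2.14 and 3.22 FPKM against 6.66, 4.04 and 13.2 FPKM, and Gsk3b at 0.0445, 1.83 and 1.44 FPKM against 6.05, 3.73 and 4.94 FPKM, with a limma adjusted p of 0.79 for each.

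The genes that E2F switches on, and those of mitosis, gave no common direction past the test. Of 14 tested E2F target and S phase genes, 10 had a difference above 0 (median 0.34). Pcna, the replication clamp, stood at 78.8, 119 and 43.8 FPKM in Krt15- and at 111, 90.9 and 79.8 FPKM in Krt15+ libraries. Tk1, thymidine kinase, stood at 55.8, 47.3 and 56.1 FPKM against 35.8, 50.1 and 0 FPKM, and Ccna2, cyclin A2, differed by -2.94 (SE 1.35, limma adjusted p = 0.79). Of 9 tested G2 and mitosis genes, 3 had a difference above 0 (median -0.57), among them Ccnb2 at 0.34 (SE 1.78), while Birc5 differed by -1.13 (SE 0.73) and Ccnb1 by -1.20 (SE 1.22). Krt15+ replicate 3, the library with most Cdkn1a and least D-type cyclin, was mixed on these lists. Mcm2, Mcm3, Mcm4, Mcm5 and Tk1 were listed at 0 in it. Ccna2 stood at 0.0853 and Cdk1 at 0.0232 FPKM, and Birc5 was the lowest of all, at 59.6 FPKM. Mcm6, Mcm7, Tyms, Ccnb1, Aurka and Aurkb were instead above Krt15+ replicate 1. So were Ccnb2, at 38.6 against 8.23 FPKM, and Mki67, at 3.12 against 0.419 FPKM.

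Most list medians had no stable sign under other scalings and with libraries left out. That of CDKs, E-type cyclins and CDK activators ranged from -0.57 to 1.03, and turned to -0.39 without Krt15- replicate 1, -0.57 without Krt15+ replicate 2, -0.0082 without both replicate 1 libraries and -0.21 with quantile normalization. The median of S phase genes ranged from -0.45 to 1.22, with values below 0 without Krt15- replicate 1 (-0.06), Krt15- replicate 3 (-0.17), Krt15+ replicate 2 (-0.45) or both replicate 1 libraries (-0.15) and with quantile normalization (-0.17). For pocket proteins and E2F factors it ranged from -0.73 without Krt15+ replicate 2 to 0.70 without Krt15+ replicate 3, and was above 0 also without Krt15- replicate 2 (0.53), Krt15- replicate 3 (0.10), Krt15+ replicate 1 (0.17), both replicate 2 (0.13) or both replicate 3 libraries (0.65). For regulators it lay between 0.06 and 0.71, for G2 and mitosis genes between -1.07 and -0.14, and for all genes tested between 0.02 and 1.04.

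**Figure D4:**
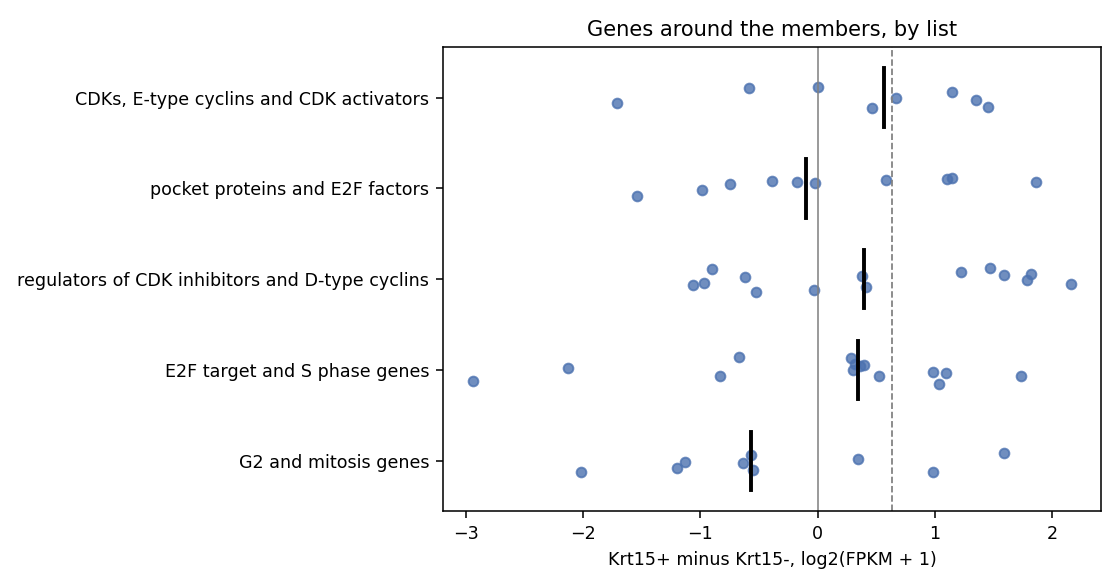
Krt15+ minus Krt15- difference in log2(FPKM + 1) (horizontal axis) of each tested gene on the 5 lists around the members; points are genes, black bars list medians, the dashed line the median of all 9423 genes, 0.63. The medians run from -0.57 for G2 and mitosis genes to 0.56 for CDKs, E-type cyclins and CDK activators, and no gene passed the test.

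Some markers of fibroblasts and immune cells were lower in Krt15+ libraries without overlap. No endothelial, muscle or suprabasal marker was. Higher without overlap were 1 of 8 suprabasal markers, Sprr3, and 1 of 8 basal markers, Col17a1, where 8.85% of all genes tested were. Sprr3 stood at 29.7, 0.12 and 26.9 FPKM in Krt15- and at 30.5, 129 and 76.7 FPKM in Krt15+ libraries. Col17a1 stood at 15.8, 26.9 and 26 FPKM against 55.8, 42.2 and 50 FPKM. The libraries are bulk samples, in which fewer cells of a type and less RNA per cell cannot be told apart. Of 8 fibroblast markers, 5 were lower in Krt15+ libraries without overlap, where 2.44% of all genes tested were. The summed level of the 8 was 138 to 685 FPKM in Krt15- and 71.2 to 179 FPKM in Krt15+ libraries. In all 3 Krt15+ libraries, 3 markers were listed at 0. Dcn, the most abundant marker, overlapped, at 13.9 to 457 FPKM in Krt15- and 71.1 to 176 FPKM in Krt15+ libraries (difference 0.07, SE 1.14). Vim stood at 35.5 to 72.5 FPKM in Krt15- and at 3.51 FPKM or less in Krt15+ libraries. Of 10 immune cell markers, 3 were lower without overlap (2.44% of all genes tested): Tyrobp, Coro1a and Ptprc. Ptprc was below the filter and so not among the genes of that share. Its lowest Krt15- value was 0.0131 FPKM against at most 0.0102 FPKM in Krt15+ libraries, and that of Coro1a 0.0329 against 0 FPKM. These lie near or below the worth of a single fragment on a 1 kb transcript. Tyrobp stood at 203, 124 and 31 FPKM in Krt15- and at 0, 20.2 and 27.6 FPKM in Krt15+ libraries. The 10 markers summed to 267 to 979 FPKM in Krt15- and 0.856 to 57.6 FPKM in Krt15+ libraries. Nkg7 reached 459 FPKM in Krt15- replicate 2, Cd74 316 FPKM in Krt15- replicate 3, and the pan-leukocyte gene Ptprc 3.95 FPKM in Krt15- replicate 2 and at most 0.0617 FPKM elsewhere. Endothelial markers summed to 0 in 5 libraries and to 4.03 FPKM in Krt15- replicate 3, where Pecam1 stood at 3.87 FPKM and Kdr at 0.162 FPKM. Muscle markers summed to 0.0618 to 9.94 FPKM, with Acta2 at 0.0141 to 9.94 FPKM and Des at 0.999 FPKM or less. Suprabasal keratinocyte markers summed to 9282 to 37974 FPKM in Krt15- and 8941 to 53123 FPKM in Krt15+ libraries, with the highest sum in Krt15+ replicate 3, where Krtdap stood at 41287 FPKM. Krtdap was listed at 0 in Krt15- replicate 3. The part of any of these cells in the levels of the CDK inhibitors and D-type cyclins was not tested.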

How the data were processed

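The authors deposited FPKM, 1 column per library, and the column names match the sample names in the labels. The submitters' processing notes name the mm9 build, Cufflinks 2.2.1, STAR 2.5 and DESeq2, without roles; the sources used here give no annotation, filter or strand setting. The labels' protocols name a SMART-Seq v4 low-input kit for cDNA synthesis. Of 24043 rows, 27 with symbols turned into dates were left out, and 92 spike-in rows stayed below the filter. Depth was estimated from the step that a single fragment makes in FPKM times length, in 6640 genes with 1 annotated transcript of at least 1500 bp, and is approximate.

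Genes averaging 1 FPKM or more over the 6 libraries were tested as log2(FPKM + 1) with limma 3.58.1 (R 4.3.3), a variance trend and group as the only term. The fit was checked on simulated data, where high recovery was required only at a spread below the median of these data. That check does not show which differences these libraries could reveal. Fold changes of low genes are understated on this scale. Alternatives were pseudocounts of 0.1 and 5, no filter, at least 1 FPKM in 3 libraries, 3 scalings, library weights, a replicate block and libraries left out. Exact permutation tests used scipy 1.17.1. The rule for named genes took all members, the 3 most abundant genes of each of 5 lists, markers, the genes most like the 3 most abundant members and any gene past the test. Cdk1, Cdk6, Cdk7, Mnat1, Mki67, Mcm2, Mcm3, Mcm4, Mcm5, Mcm6, Mcm7, Tyms, Aurka, Aurkb, Skp2, E2f2, E2f7, Ezh2, Foxo1, Gsk3b, Trp53, Mdm2, Klf4, Ptprc, Coro1a, Tyrobp, Sprr3, Col17a1 and Tbp were named after their values were seen. The members and lists were chosen with earlier results of these data known. No coordinates are given, since the annotation at hand is GRCm38.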

Additional observations from a re-analysis of the deposited data

How the results depend on the processing

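No member was called in any of the settings tried, where limma adjusted p-values of members lay between 0.62 and 1.00. Over all genes, 0 were called higher in Krt15+ cells in every setting. The count called lower, 0, became 8 with library weights and 1 with quantile normalization, and 0 to 1 with libraries left out; none of these was a member. With quantile normalization, which moved the median difference of all genes from 0.63 to 0.04, the difference of Cdkn1b turned to -0.67 and that of Ccnd1 to -0.49. With library weights, which gave Krt15- replicate 1 a weight of 0.225, it turned to -0.12 for Cdkn1b, -0.52 for Cdkn2d and -0.49 for Ccnd1. Cdkn2d turned to -0.05 with a pseudocount of 5, and Ccnd1 to -0.00049 with median-of-ratios scaling. With libraries left out, singly or as a replicate number of both groups, differences ranged from -0.38 to 1.62 for Cdkn2b, -1.99 to 0.30 for Cdkn2c, -1.26 to 1.55 for Cdkn2d, -1.02 to 1.55 for Ccnd1 and -0.21 to 2.91 for Ccnd2. Without both replicate 3 libraries Cdkn1b, and without both replicate 2 libraries Cdkn2b, fell below the filter. The members whose groups do not overlap, 0 with all libraries, were 0 to 4 with libraries left out, where 16.9% to 33.9% of all genes did not overlap. The cause of these changes was not tested.

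The labels give both groups replicate numbers 1 to 3, and the column names of a number share a prefix whose meaning is not stated. Deviations from the group means correlated at 0.13, 0.17 and 0.01 between libraries of the same number. Between libraries of other numbers they correlated at -0.16 to 0.03, and 4 of 6 libraries correlated best with their own number. These values do not settle whether libraries of a number belong together, and the main fit assumed no pairing. Cdkn1a and Cdkn1b were higher in the Krt15+ library of each of the 3 numbers. Over all genes tested, 68.6% had a group difference above 0, and the share that was higher in each number was not computed. The replicate block called 0 genes in either direction, and Cdkn1a differed by 1.06 (SE 0.73, limma adjusted p = 0.74) with it.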

Other observations

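Other regulators of the members are given here for their values, and their part in the level of Cdkn1a was not tested. Trp53, which encodes the p53 protein that induces Cdkn1a, stood at 58.7, 79.2 and 49.1 FPKM in Krt15- and at 42.0, 67.9 and 25.9 FPKM in Krt15+ libraries. Its target Mdm2 stood at 33.3, 28.8 and 0.984 FPKM in Krt15- and at 3.70, 11 and 3.78 FPKM in Krt15+ libraries. Klf4, a factor of epithelial differentiation that can raise Cdkn1a, stood at 57.8, 27.1 and 48.0 FPKM against 38.1, 24 and 193 FPKM. It was highest in Krt15+ replicate 3 and next highest in Krt15- replicate 1. None of the 3 passed the test (limma adjusted p = 0.87, 0.85 and 0.92).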
